A study of Mus musculus with 20 samples.

Results

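The 37 genes examined here are expressed by neutrophils and other inflammatory granulocytes, and were chosen by gene symbol out of 32991 genes with a value. They were measured in colon tissue of 20 mice by RNA-seq, with 1 library per mouse and 5 mice in each of 4 groups. Control mice received double distilled water by gavage, and PZH mice received PZH, the Chinese medicine formula Pien Tze Huang, at 250 mg/kg/d for 91 days. Mice of the AOM/DSS group (labelled Model) received azoxymethane (AOM), a colon carcinogen, at 12.5 mg/kg by intraperitoneal injection. After 7 days they drank 2% dextran sulfate sodium (DSS), which injures the colon lining, for 5 days and then plain water for 2 weeks, over 4 cycles in all. Mice of the PZH + AOM/DSS group (labelled Model + PZH) received both PZH and AOM/DSS. The labels give no age and no genetic change in any group, and the question was how AOM/DSS and PZH, alone or together, altered gene expression in the colon.

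Neutrophils are short-lived white blood cells that leave the bone marrow fully formed, follow chemokines into injured tissue and kill microbes with stored granule proteins and with an oxidase that produces superoxide. Their most abundant cytosolic proteins, S100a8 and S100a9, form calprotectin, which is shed into the gut lumen during colitis and serves as a marker of it. Genes of the primary granules, such as Mpo and Elane, are transcribed in the bone marrow and largely silent in circulating cells, whereas receptors, Retnlg and Acod1 are transcribed in mature or activated cells. Some members are also expressed elsewhere: Lcn2 and Lrg1 in inflamed epithelium, S100a8 and S100a9 in squamous epithelium, and Itgam, Itgb2, Cyba, Cybb and Fcgr3 in macrophages. In bulk tissue, fewer cells of a type and less RNA per cell cannot be told apart.

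Values are FPKM (fragments per kilobase of transcript, scaled to the fragments of each library), summed over the annotated transcripts of a gene, so that they can be compared between genes as well as between mice. Differences are on the log2(FPKM + 1) scale with their standard error (SE), and "called" means a Benjamini-Hochberg adjusted P below 0.05 in limma, with adjustment over every gene tested. Only genes at or above 0.5 FPKM in 5 or more of the compared mice were tested. On this scale the difference of a gene near 0 is understated. Of the 740 values of the members, 153 are exactly 0. Because the deposited files also hold assembled transcripts that carry no gene name, and fragments given to those are missing from the gene sums, such a gene is described only as listed at 0.

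Of 10 genes of colon epithelium, 8 stood at 1 FPKM or more in every mouse, among them the absorptive genes Car1 and Lgals4 at 65.2 FPKM or more and 563 FPKM or more. The other two did not meet the tissue label throughout, since Epcam was listed at 0 in 13 of 20 mice, all 5 Control mice included, and Krt8 stood below 1 FPKM in 8 mice. Depth was 15.3 to 19.4 M fragments. Control mice 17 and 50 stood apart, since the summed FPKM of 14 squamous epithelial genes was 644 and 457 in them, against 5.27 to 6.90 in the other 3 Control mice and 4.58 to 6.89 in the PZH group. Krt13, a keratin of squamous lining, stood at 125 and 126 FPKM in these 2 mice and at 0.527 or less in the other Control mice. PZH + AOM/DSS mouse 35 also stood apart, with the highest value of its group for 22 of the 28 members tested against the AOM/DSS group. For the members, calls that rest on these mice are given with and without them. Results of the marker lists are given with all mice only.

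The label of the gene set was only partly met. Calprotectin, receptor and adhesion genes were measurable, but Mpo, the peroxidase of primary granules, did not pass 0.172 FPKM in any mouse, and Elane, neutrophil elastase, did not pass 0.0577 FPKM. Camp, the cathelicidin of secondary granules, reached 0.246 FPKM at most, and Cebpe, the factor that drives secondary granule genes, 0.335 FPKM. In contrast Ly6g, the surface antigen used to gate mouse neutrophils, stood at 59.6 FPKM or more in every mouse, untreated ones included. Ly6g did not follow the other members between groups, as described below.

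**Figure D1:**
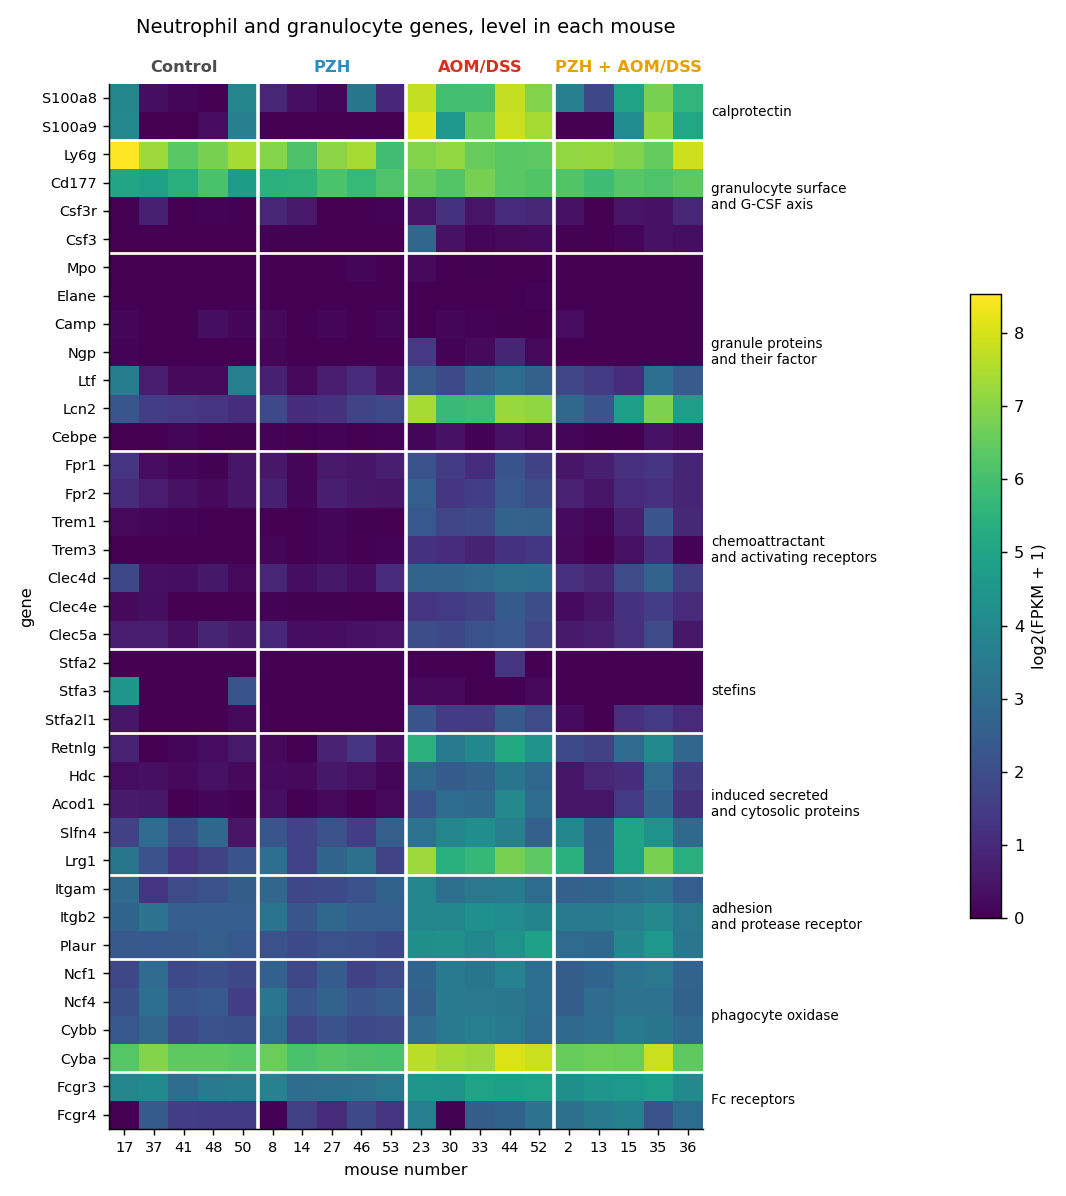
Level of the 37 genes (rows, grouped by role) in each of the 20 mice (columns, mouse number), as log2(FPKM + 1). S100a8, S100a9, Lcn2, Retnlg and Lrg1 are brightest in the AOM/DSS mice and in PZH + AOM/DSS mouse 35, whereas Ly6g is bright in all 4 groups and Mpo, Elane and Camp are dark in all of them.

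Compared with the Control group, AOM/DSS mice had higher levels of nearly every measurable member. Of the 28 members tested, 25 rose and none fell at an adjusted P under 0.05 (limma), whereas 16.4% of all 15812 genes tested rose and 7.23% fell. Of these 28, 5 (Trem1, Trem3, Clec4e, Stfa2l1 and Hdc) reached 0.5 FPKM in AOM/DSS mice and in no Control mouse, so that they could enter only by being higher. The median difference was 1.39 over the 28 members and 0.094 over all genes tested. Without any filter, the median over all 37 members was 1.22, with 34 higher and 3 lower in the mean. Over 31007 genes it was 0.013, with 55.7% of them higher. The 5 AOM/DSS mice all lay above the 5 Control mice for 21 of the 28 members, against 13% of all genes tested.

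Both calprotectin genes had the largest differences of all members. S100a8, the smaller subunit, lies on chromosome 3 at 90668978 to 90670035 (GRCm38) and S100a9, its partner, at 90692632 to 90695721 on the other strand. S100a8 stood at 14.1, 0.25, 0.103, 0 and 13.8 FPKM in Control mice 17, 37, 41, 48 and 50, and at 214, 60.5, 62.4, 216 and 119 FPKM in AOM/DSS mice 23, 30, 33, 44 and 52. The lowest AOM/DSS mouse was thus well above the 2 high Control mice, which are those with squamous keratins. The difference was 5.21 ± 0.87 (SE, adjusted P = 0.00191, limma). Without Control mice 17 and 50 it was 6.71 ± 0.46 (adjusted P = 0.000109, limma).

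S100a9 was listed at 0 in Control mice 37 and 41, at 0.212 FPKM in mouse 48, and at 15.1 and 12.1 FPKM in mice 17 and 50. In AOM/DSS mice 23, 30, 33, 44 and 52 it stood at 276, 22.5, 90.2, 230 and 167 FPKM. The groups did not overlap, although AOM/DSS mouse 30 came close to the 2 Control mice with squamous keratins. The difference was 5.29 ± 0.97 (adjusted P = 0.00328, limma) with all mice and 6.79 ± 0.72 (adjusted P = 0.000652, limma) without those 2. The ratio of S100a9 to S100a8 was between 1.07 and 1.44 in 4 AOM/DSS mice and 0.372 in mouse 30, and it was 1.07 and 0.871 in Control mice 17 and 50. In PZH + AOM/DSS mice 15, 35 and 36 the ratio was 0.558, 1.27 and 0.691, and in mouse 2 S100a9 was listed at 0. The subunits were thus at a like level per length in some of these mice and not in others.

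S100a8 and S100a9 are near neighbours on chromosome 3 that rose together, and Ly6g was abundant and did not rise, so the sequence before the start of these 3 genes is shown. It comes from RefSeq (GRCm38.p6) and covers the 250 bases before the RefSeq start, less any bases that GENCODE M21 counts to the gene itself (93 for S100a8, 21 for Ly6g). S100a8 is at chr3:90668821-90668977 on the plus strand, S100a9 at chr3:90695722-90695971 on the minus strand and Ly6g at chr15:75155011-75155239 on the plus strand, each read 5′ to 3′. Capitals mark a match to TTGCNNAA (the core bound by C/EBP factors) or to GAGGAA (the core bound by PU.1), on either strand, and both factors act in granulocyte development.
S100a8: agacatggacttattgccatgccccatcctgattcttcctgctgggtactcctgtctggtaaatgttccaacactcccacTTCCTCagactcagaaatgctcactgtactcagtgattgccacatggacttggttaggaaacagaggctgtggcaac
S100a9: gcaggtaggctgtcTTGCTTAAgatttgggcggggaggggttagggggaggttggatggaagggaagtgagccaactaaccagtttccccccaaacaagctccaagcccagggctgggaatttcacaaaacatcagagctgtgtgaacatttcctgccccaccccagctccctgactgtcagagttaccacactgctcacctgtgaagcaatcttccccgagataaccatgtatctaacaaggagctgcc
Ly6g: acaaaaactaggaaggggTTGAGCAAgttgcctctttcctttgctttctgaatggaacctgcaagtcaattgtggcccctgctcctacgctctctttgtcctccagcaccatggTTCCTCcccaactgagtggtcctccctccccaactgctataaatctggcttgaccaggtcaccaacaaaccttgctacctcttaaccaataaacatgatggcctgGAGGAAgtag

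Distances are counted from the RefSeq start, and matches in the bases left out of the display are not given. Within the stretches shown, the match nearest to that start was 170 bases before it in S100a8 (PU.1 core). It was 236 bases before it in S100a9 (C/EBP core) and 31 in Ly6g (PU.1 core). Promoter windows were held for 32 of the 37 members. A member counted when any of its windows held a core, whereas the share of all genes was counted per single window. Members with several windows thus had more chances of a match, so the shares below are not like measures. The PU.1 core was found in 21 of the 32 members (65.6%), against 23.3% of 32851 windows of all genes. The C/EBP core was found in 9 (28.1%), against 9.56%. The STAT core TTCNNNGAA and the AP-1 core TGANTCA were found in 3 members each (9.38%), against 7.02% and 6.75%. Overlaps between different motifs were not removed. A match is a run of letters and was not tested for binding.

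Of the granulocyte surface genes, Cd177 rose and Ly6g did not. Cd177, a membrane protein of neutrophils that binds platelet adhesion molecules, had a mean ± SD of 38.4 ± 16.6 FPKM in the Control and 85.9 ± 14.3 FPKM in the AOM/DSS group (n = 5 each), a difference of 1.22 ± 0.24 (adjusted P = 0.00446, limma). Its level of 24.7 FPKM or more in every Control mouse, like that of Ly6g, was far above the receptor genes of the set. Ly6g stood at 369, 155, 80.8, 109 and 165 FPKM in Control mice 17, 37, 41, 48 and 50, and at 123, 141, 93.2, 81.1 and 82.6 FPKM in AOM/DSS mice 23, 30, 33, 44 and 52. The ranges overlapped and the Control group held the highest mouse, so that the difference was -0.58 ± 0.35 (adjusted P = 0.264, limma). Csf3r, the receptor of the granulocyte growth factor G-CSF, did not pass 1.31 FPKM in any mouse, and its ligand Csf3 reached 6.03 FPKM in AOM/DSS mouse 23 and at most 0.335 FPKM elsewhere. Neither of them entered the test.

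Among the 7 genes of granule proteins and their factor, Lcn2 rose and Ltf, the only other one that could be tested, was not called. Lcn2, lipocalin 2, withholds iron from bacteria and lies at 32384633 to 32388252 on chromosome 2. It stood at 3.84, 1.94, 1.64, 1.45 and 1.16 FPKM in Control mice 17, 37, 41, 48 and 50, and at 165, 52.8, 56.0, 148 and 137 FPKM in AOM/DSS mice 23, 30, 33, 44 and 52. The groups were far apart in every mouse, and the difference was 5.13 ± 0.36 (adjusted P = 7.4e-06, limma). Ltf, lactoferrin of the secondary granules, stood at 2.74 to 7.11 FPKM in the AOM/DSS group, but at 10.9 and 11.4 FPKM in Control mice 17 and 50 and at 0.551 FPKM or less in the other 3. With all mice its difference was 0.87 ± 0.71 (adjusted P = 0.426, limma), and without Control mice 17 and 50 it was 2.17 ± 0.25 (adjusted P = 0.000861, limma). Ngp, a granule protein of maturing neutrophils, reached 1.67 and 0.862 FPKM in AOM/DSS mice 23 and 44 and at most 0.17 FPKM in any other mouse. Together with Mpo, Elane, Camp and Cebpe it was too low to enter the test.

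All 7 chemoattractant and activating receptors rose, 3 of them from below 0.5 FPKM in each Control mouse. Clec4d, a lectin receptor for fungal and mycobacterial glycolipids, was the highest of them. It stood at 2.62, 0.286, 0.236, 0.458 and 0.145 FPKM in Control mice 17, 37, 41, 48 and 50, and at 5.50, 5.39, 6.77, 7.90 and 7.51 FPKM in AOM/DSS mice 23, 30, 33, 44 and 52. The AOM/DSS mice were close to each other and all were above Control mouse 17, with a difference of 2.26 ± 0.29 (adjusted P = 0.000414, limma). Fpr2, a receptor of formylated bacterial peptides, stood at 1.12, 0.579, 0.318, 0.165 and 0.441 FPKM in Control mice 17, 37, 41, 48 and 50, and at 4.79, 1.54, 2.01, 3.96 and 3.05 FPKM in AOM/DSS mice 23, 30, 33, 44 and 52. The difference was 1.38 ± 0.24 (adjusted P = 0.00255, limma), with no overlap. Of its 75-base windows, 20.9% also occur in other annotated transcripts, mostly of Gm5966, so a part of its value may belong to that gene. The other receptors rose by 1.16 (Trem3, which pairs with the same adaptor as Trem1) to 2.18 (Trem1, an amplifier of neutrophil activation). Between them lay Fpr1 at 1.29, Clec5a at 1.40 and Clec4e, a receptor of mycobacterial cord factor and of dead cells, at 1.66.

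The stefins, cytosolic inhibitors of cathepsins, split. Stfa2l1 rose by 1.76 ± 0.20 (adjusted P = 0.000158, limma), from at most 0.443 FPKM in the Control group to 1.79 to 4.19 FPKM in the AOM/DSS group. It shares 7.83% of its 75-base windows with other genes, mostly Stfa2, which was listed at 0 in every mouse but AOM/DSS mouse 44, at 1.51 FPKM. Stfa3 stood at 21.9 FPKM in Control mouse 17 and at 3.63 FPKM in mouse 50, again the mice with squamous keratins, and was listed at 0 in the other Control mice and in all mice of the PZH and PZH + AOM/DSS groups. In the AOM/DSS group it stood at 0.143, 0.144 and 0.138 FPKM in mice 23, 30 and 52 and was listed at 0 in mice 33 and 44, values no larger than 1 fragment, which for its transcript of 412 bases is worth 0.125 to 0.158 FPKM. Stfa3 therefore marked the 2 Control mice and not the AOM/DSS group.

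All 5 induced secreted and cytosolic proteins rose. Lrg1, a secreted glycoprotein that modifies TGF-beta signalling and comes from neutrophils, liver and endothelium, stood at 8.91, 3.41, 1.55, 2.12 and 3.67 FPKM in Control mice 17, 37, 41, 48 and 50. It stood at 153, 41.6, 50.5, 108 and 83.2 FPKM in AOM/DSS mice 23, 30, 33, 44 and 52. Every AOM/DSS mouse was far above every Control mouse, with a difference of 4.18 ± 0.42 (adjusted P = 7.68e-05, limma). Retnlg, a resistin-like protein of neutrophils, rose by nearly the same amount, 4.17 ± 0.35 (adjusted P = 2.42e-05, limma), from at most 0.703 FPKM to 10.7 to 44 FPKM. Acod1, the mitochondrial enzyme that produces itaconate, stood at 0.536, 0.459, 0.0196, 0.095 and 0.0335 FPKM in Control mice 17, 37, 41, 48 and 50, and at 3.79, 7.16, 6.67, 15 and 7.16 FPKM in AOM/DSS mice 23, 30, 33, 44 and 52. The difference was 2.78 ± 0.28 (adjusted P = 7.6e-05, limma). Hdc, which makes histamine and is also a mast cell gene, rose by 2.53 ± 0.16 (adjusted P = 4.01e-06, limma). Slfn4, an interferon-induced gene of myeloid cells, rose by 1.52 ± 0.47 with overlapping groups (adjusted P = 0.0395, limma). The call of Slfn4 was lost without Control mouse 17, 41 or 50 or without AOM/DSS mouse 23, 30, 33 or 44.

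Of the 9 adhesion, oxidase and Fc receptor genes, 8 rose, by 0.92 to 1.95, and Fcgr4 was not called. Plaur, the urokinase receptor, stood at 4.23, 4.08, 4.22, 5.05 and 4.09 FPKM in Control mice 17, 37, 41, 48 and 50, and at 18.0, 18.6, 15, 19.5 and 28.6 FPKM in AOM/DSS mice 23, 30, 33, 44 and 52, a difference of 1.95 ± 0.16 (adjusted P = 2.03e-05, limma). The Control mice varied little, and the AOM/DSS mice were all well above them. Itgam and Itgb2, the subunits of the integrin Mac-1, rose by 1.23 and 1.28, but 66.1% of the windows of Itgam also occur in Gm49368, so that its value is uncertain. Cyba, the p22 subunit of the membrane-bound oxidase, was the most abundant of the 4 oxidase genes. It stood at 76.4, 121, 83.5, 84.5 and 78.9 FPKM in Control mice 17, 37, 41, 48 and 50, and at 201, 165, 155, 268 and 228 FPKM in AOM/DSS mice 23, 30, 33, 44 and 52. Its difference of 1.18 ± 0.17 (adjusted P = 0.000963, limma) was close to those of Cybb, the gp91 subunit, at 1.05, of Ncf1 (p47) at 1.17 and of Ncf4 (p40) at 0.92. The call of Ncf4 was lost without Control mouse 17, 41, 48 or 50 or without AOM/DSS mouse 30, 33, 44 or 52, and that of Ncf1 without Control mice 17 and 50 together. Fcgr3, a low-affinity receptor of IgG, stood at 14, 15.8, 7.24, 10.7 and 11.1 FPKM in Control mice 17, 37, 41, 48 and 50, and at 21.6, 20.3, 29.0, 28 and 29.3 FPKM in AOM/DSS mice 23, 30, 33, 44 and 52. It rose by 1.09 ± 0.19 (adjusted P = 0.00283, limma), without overlap, and 6.48% of its windows also occur in Fcgr2b. Fcgr4, which binds IgG2 subclasses, was listed at 0 in Control mouse 17. It stood at 0.0235 FPKM in AOM/DSS mouse 30, less than 1 fragment, and at 4.68 to 11.5 FPKM in the other AOM/DSS mice. Its difference of 1.02 ± 0.65 was not called (adjusted P = 0.293, limma). This rested on mouse 30, since Fcgr4 was called without it.

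**Figure D2:**
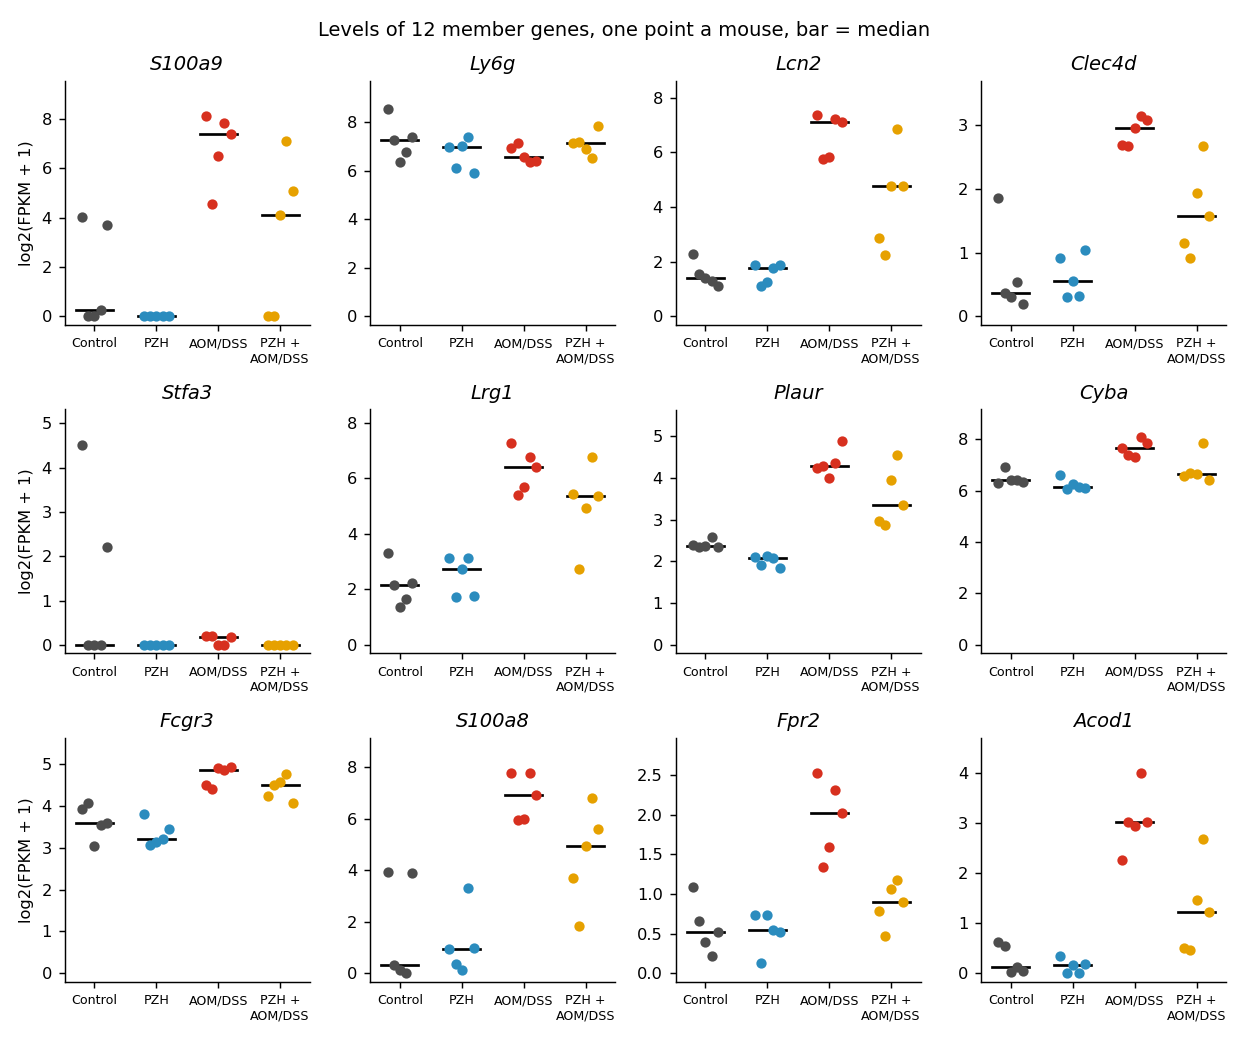
Level of 12 members, as log2(FPKM + 1), with 1 point per mouse and a bar at the group median. The AOM/DSS points lie above all Control points for every gene shown except Ly6g and Stfa3, and mouse 35 is the only PZH + AOM/DSS point among the AOM/DSS points for Lcn2, Cyba, Acod1 and S100a8.

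No member was called between mice given PZH alone and Control mice. Of the 37 members, 17 could be tested between the PZH and Control groups, with 0 called (limma), against 0.00645% of 15506 genes tested. At an unadjusted P under 0.05 there were 2 of 17 members, against 8.84% of all genes tested. Cd177 had a mean ± SD of 55.8 ± 13.5 FPKM in PZH mice (n = 5), a difference of 0.58 ± 0.26 (unadjusted P = 0.044, adjusted P = 0.555, limma). Plaur stood at 3.34, 2.75, 3.36, 3.23 and 2.59 FPKM in PZH mice 8, 14, 27, 46 and 53, each below the lowest Control mouse at 4.08 FPKM. The difference of Plaur was -0.40 ± 0.11 (unadjusted P = 0.00442, adjusted P = 0.437, limma), and non-overlap with lower values was seen for 0.896% of all genes tested.

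The other members with high values in PZH mice were those also high in the Control group. Ly6g stood at 125, 69.3, 130, 165 and 59.6 FPKM in PZH mice 8, 14, 27, 46 and 53, Cyba at 95.9, 66.3, 74.9, 69.6 and 67.4 FPKM and Fcgr3 at 12.9, 7.34, 7.84, 8.25 and 9.84 FPKM. Lrg1 stood at 7.70, 2.28, 5.67, 7.78 and 2.35 FPKM, and Lcn2 at 2.68, 1.16, 1.37, 2.37 and 2.69 FPKM in the same mice. These ranges overlapped those of the Control group. Clec4d stood at 0.881, 0.237, 0.464, 0.247 and 1.07 FPKM, Fpr2 at 0.672, 0.0931, 0.662, 0.467 and 0.438 FPKM, and Acod1 did not pass 0.278 FPKM. S100a9 was listed at 0 in all 5 PZH mice, whereas S100a8 stood at 0.903, 0.283, 0.0925, 8.98 and 0.965 FPKM in mice 8, 14, 27, 46 and 53. PZH mouse 46 thus held S100a8 at 8.98 FPKM with S100a9 only listed at 0. The median difference over the 17 members was -0.082, against 0.0065 over all genes tested.

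Compared with the AOM/DSS group, most members were lower in the PZH + AOM/DSS group, but no difference of a member passed the correction. Of 28 members tested, none was called (limma), against 0.00629% of all 15888 genes tested, which is 1 gene. At an unadjusted P under 0.05, 18 of the 28 members were lower and none was higher, whereas 8.21% of all genes tested were lower and 3.51% higher. With a difference beyond 1 on the log2(FPKM + 1) scale and an unadjusted P under 0.05 (limma), 11 members were lower, against 2.01% of all genes. By the ratio of the group means of FPKM, 14 members with an unadjusted P under 0.05 were lower by more than 2-fold. The share of all genes by this ratio was not computed, so that this count has nothing to be set against. The median difference was -0.82 over the 28 members and -0.038 over all genes tested. Without any filter it was -0.56 over all 37 members, 33 of them lower and 4 higher in the mean. Over 31108 genes it was -0.0031, with 48.6% of them higher. This comparison shares the AOM/DSS mice with the comparison above.

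The members with the lowest P were Fpr2, Clec4d and Acod1. Fpr2 stood at 0.726, 0.392, 1.09, 1.26 and 0.862 FPKM in PZH + AOM/DSS mice 2, 13, 15, 35 and 36, all below the lowest AOM/DSS mouse at 1.54 FPKM. Its difference was -1.08 ± 0.23 (unadjusted P = 0.000839, adjusted P = 0.356, limma). Clec4d stood at 1.23, 0.892, 2.84, 5.38 and 1.99 FPKM in these mice, with mouse 35 just under the lowest AOM/DSS mouse at 5.39 FPKM and the other 4 well under it. Its difference was -1.26 ± 0.30 (unadjusted P = 0.00149, adjusted P = 0.356, limma). Acod1 stood at 0.418, 0.383, 1.75, 5.39 and 1.34 FPKM, so that mouse 35 lay inside the AOM/DSS range and the other 4 mice below it, with a difference of -1.78 ± 0.43 (unadjusted P = 0.00187, adjusted P = 0.356, limma). Stfa2l1 was the third member, with Fpr2 and Clec4d, for which the groups did not overlap, against 0.673% of all genes tested.

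The genes with the largest rises under AOM/DSS had wide ranges in the PZH + AOM/DSS group. S100a8 stood at 12.1, 2.61, 29.4, 109 and 47.8 FPKM in mice 2, 13, 15, 35 and 36, with 4 of the 5 mice below the lowest AOM/DSS mouse. The difference of S100a8 was -2.29 ± 0.81 (adjusted P = 0.36, limma). S100a9 was listed at 0 in mice 2 and 13 and stood at 16.4, 138 and 33 FPKM in mice 15, 35 and 36, with a difference of -3.62 ± 1.35 (adjusted P = 0.371, limma). Mouse 2 held S100a8 at 12.1 FPKM with S100a9 listed at 0, the same mismatch as in PZH mouse 46. Lcn2 stood at 6.29, 3.73, 26, 114 and 26.5 FPKM and Lrg1 at 42.0, 5.63, 29.8, 109 and 39.9 FPKM, again with mouse 35 highest and mouse 13 lowest. Their differences were -2.36 ± 0.77 and -1.26 ± 0.65 (adjusted P = 0.356 and 0.469, limma).

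Plaur, Cyba, Fcgr3 and Ly6g had risen less under AOM/DSS than the genes above, or not at all. Plaur stood at 6.82, 6.34, 14.6, 22.6 and 9.19 FPKM in PZH + AOM/DSS mice 2, 13, 15, 35 and 36, and Cyba at 92.9, 100.3, 97.7, 230 and 84.6 FPKM. In 4 of these mice Cyba lay inside the Control range of 76.4 to 121 FPKM, and mouse 35 lay inside the AOM/DSS range. Fcgr3 stood at 17.9, 21.5, 22.6, 26.1 and 15.7 FPKM, overlapping the AOM/DSS group, with a difference of -0.30 ± 0.16 (unadjusted P = 0.0929, limma). Ly6g stood at 140, 146, 120, 90.2 and 232 FPKM, a difference of 0.44 ± 0.24 (unadjusted P = 0.0975, limma), and here mouse 35 was the lowest of its group. Fcgr4 and Slfn4 had higher means in the PZH + AOM/DSS group (8.29 and 15.3 FPKM) than in the AOM/DSS group (6.01 and 11.2 FPKM), with adjusted P of 0.661 and 0.849 (limma). The AOM/DSS mean of Fcgr4 includes mouse 30 at 0.0235 FPKM.

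The count of calls rested on mouse 35. Without it, 12 of the 28 members were called lower in the PZH + AOM/DSS group (Hdc, Clec5a, Trem3, Clec4d, Trem1, Cyba, Acod1, Lcn2, Retnlg, Fpr2, Stfa2l1 and Plaur), among 808 genes called in all, 5.17% of the 15639 tested. S100a8 and S100a9 were not among them, at -2.84 ± 0.73 and -4.58 ± 1.19 (adjusted P = 0.0567 and 0.0576, limma). With all 20 mice in one model, which takes the spread from all 4 groups, 7 members were called lower (Acod1, Hdc, Clec5a, Trem3, Trem1, Fpr2 and Stfa2l1), among 89 genes, 0.56% of the 15888 tested. Mouse 35 stood at or above the lowest AOM/DSS mouse for 24 of the 28 members, against 5, 7, 10 and 7 of 28 for mice 2, 13, 15 and 36.

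**Figure D3:**
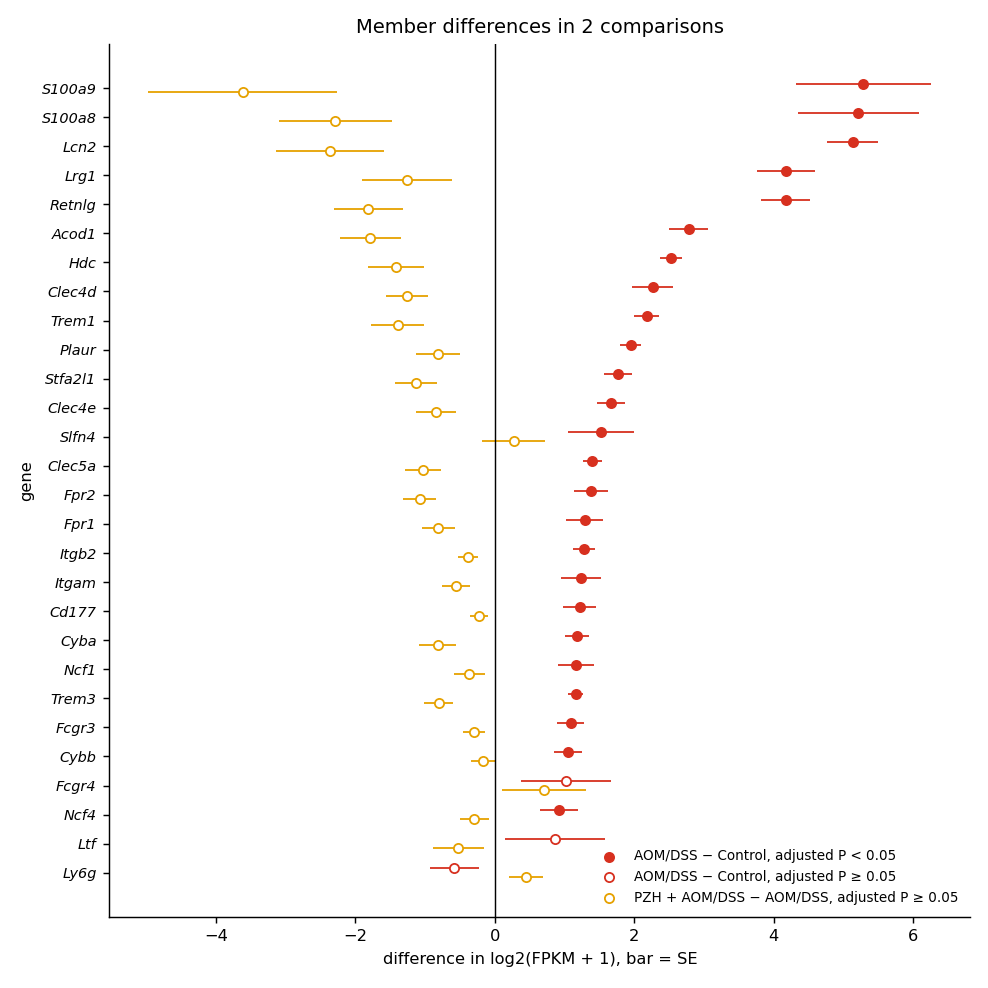
Difference in log2(FPKM + 1), with its SE, of the 28 members tested, for AOM/DSS minus Control (red) and PZH + AOM/DSS minus AOM/DSS (yellow), where filled points have an adjusted P under 0.05. The red points of 25 members are filled, from 0.92 (Ncf4) to 5.29 (S100a9), and no yellow point is filled. Both comparisons share the AOM/DSS mice.

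The interaction of both treatments, fitted to all 20 mice, asks whether the difference between PZH-treated and untreated mice was another under AOM/DSS than without it. It is negative where PZH-treated mice were lower, relative to untreated mice, under AOM/DSS than without it. None of 29 members tested was called (limma), against 0.0118% of 16936 genes. A negative interaction with an unadjusted P under 0.05 was found for 13 members, against 6.92% of all genes. The lowest P was that of Trem3, at -0.88 ± 0.22 (unadjusted P = 0.000712, adjusted P = 0.335, limma). Trem3 was listed at 0 in every Control mouse and did not pass 0.122 FPKM in the PZH group. A gene so near 0 without AOM/DSS has no room to fall there, so any fall under AOM/DSS appears as a negative interaction. Without PZH + AOM/DSS mouse 35, 8 members were called with a negative interaction (Acod1, Clec5a, Cyba, Hdc, Lcn2, Retnlg, Trem1 and Trem3). They were among 476 genes called in all, 2.83% of the 16814 tested. The interaction shares its mice with the comparisons above and is not separate evidence.

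Some members stayed above the mice without AOM/DSS. Compared with the PZH group, 5 of 21 members tested were higher in the PZH + AOM/DSS group (Fcgr3, Fcgr4, Itgb2, Plaur and Retnlg), against 1.74% of 15636 genes. Retnlg, at 2.22 to 16.0 FPKM, differed from the PZH group by 2.17 ± 0.43 (adjusted P = 0.0355, limma), and Fcgr3 by 1.10 ± 0.17 (adjusted P = 0.0198, limma). Compared with the Control group, 4 of 22 were higher (Cybb, Itgb2, Lrg1 and Retnlg), against 1.55% of 15616 genes. Retnlg differed from Control by 2.36 ± 0.40 (adjusted P = 0.0195, limma), and Lrg1 by 2.91 ± 0.63 (adjusted P = 0.0416, limma). These counts were fragile. Against the PZH group, leaving out PZH mouse 27 or PZH + AOM/DSS mouse 15 left no call, leaving out PZH mouse 14 or 53 left 1, PZH mouse 46 left 2 and PZH + AOM/DSS mouse 2 left 3. Against the Control group, leaving out PZH + AOM/DSS mouse 15, or Control mice 17 and 50 together, left no call. Leaving out Control mouse 17, 41 or 50 or PZH + AOM/DSS mouse 2 or 35 left 1, and leaving out Control mouse 48 or PZH + AOM/DSS mouse 36 left 2.

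Averaged over the 37 members, log2(FPKM + 1) was 1.15 to 1.86 in the Control group, 1.12 to 1.48 in the PZH group, 2.68 to 3.30 in the AOM/DSS group and 1.71 to 2.94 in the PZH + AOM/DSS group. In the last group mouse 13 was lowest and mouse 35 highest. Only mouse 35 lay inside the AOM/DSS range, and mouse 13 lay inside the Control range.

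**Figure D4:**
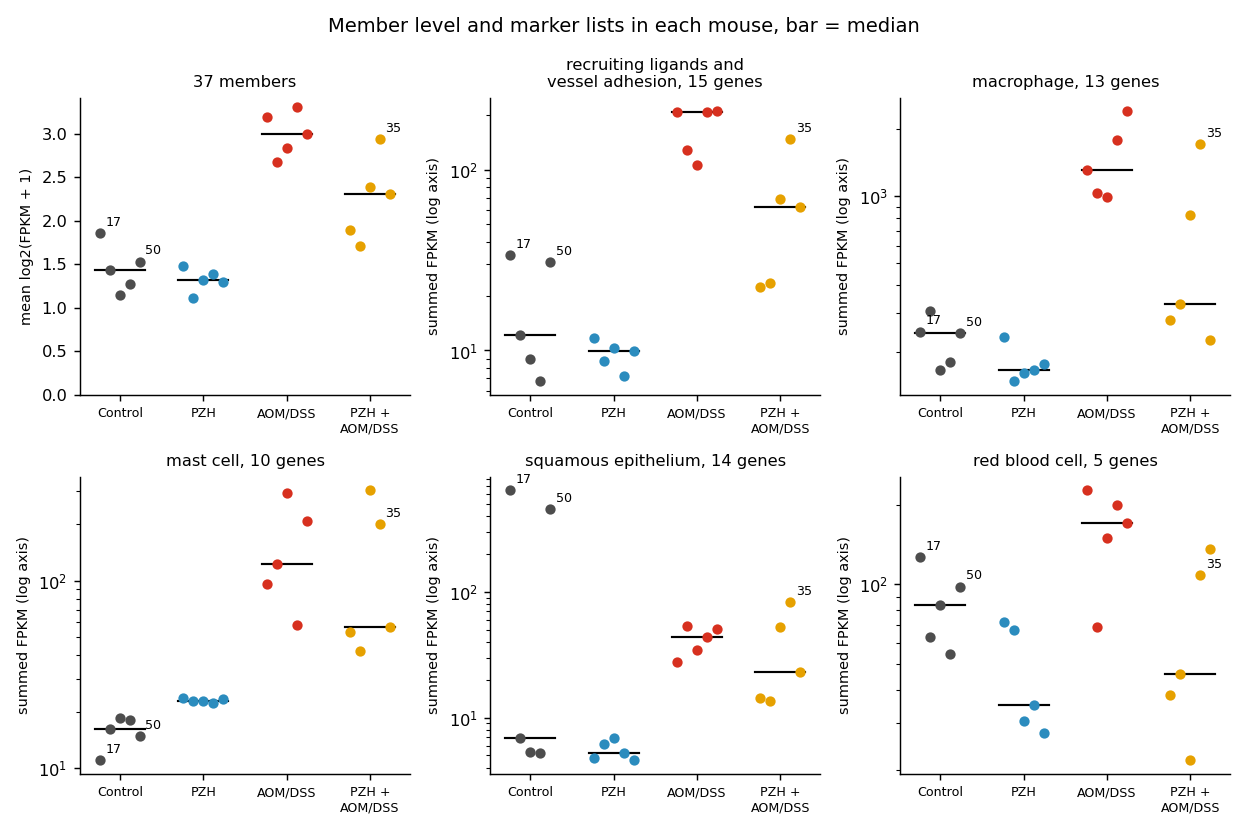
Mean log2(FPKM + 1) over the 37 members and summed FPKM (log axes) of 5 marker lists, with 1 point per mouse, a bar at the group median and labels on Control mice 17 and 50 and PZH + AOM/DSS mouse 35. Control mice 17 and 50 stand out in squamous epithelium, and mouse 35 is the highest of its group in the members, the recruiting ligands, macrophage and squamous lists.

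Of 37 other genes of neutrophils, 32 were tested for AOM/DSS against Control, and 25 rose and none fell. Cxcr2 and Mmp8, which were among the 25, reached 0.5 FPKM in no Control mouse and could enter only by being higher. Padi4, which citrullinates histones in neutrophils, rose by 3.69 ± 0.23, Adam8, a leukocyte protease, by 2.56 ± 0.16 and Cxcr2, the chemokine receptor that draws neutrophils into tissue, by 2.04 ± 0.13 (adjusted P = 4.11e-06, 4.3e-06 and 4.53e-06, limma). In the PZH + AOM/DSS group none of 33 was called, and 15 were lower and none higher at an unadjusted P under 0.05. The differences were -1.87 ± 0.61 for Padi4, -1.37 ± 0.40 for Adam8 and -1.20 ± 0.29 for Cxcr2 (adjusted P = 0.356 for each, limma). Cxcr2 stood at 2.78 to 4.24 FPKM in the AOM/DSS group and at 0.413, 0.245, 1.09, 3.27 and 0.823 FPKM in PZH + AOM/DSS mice 2, 13, 15, 35 and 36. Only mouse 35 was within the AOM/DSS range.

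Of 15 genes for neutrophil-recruiting ligands and vessel adhesion molecules, 10 were tested between AOM/DSS and Control, and 9 rose. Of these 9, 4 (Cxcl2, Cxcl3, Il23a and Osm) reached 0.5 FPKM in no Control mouse and could enter only by being higher. Cxcl2, a ligand of Cxcr2, rose by 4.62 ± 0.30, Cxcl3, another one, by 2.77 ± 0.20 and Il23a, a cytokine subunit upstream of neutrophil growth signals, by 2.47 ± 0.23 (adjusted P = 4.3e-06, 7.64e-06 and 5.02e-05, limma). Cxcl2 did not pass 0.126 FPKM in the Control group, reached 11.0 to 45.4 FPKM in the AOM/DSS group and stood at 0.959, 0.516, 3.88, 17.4 and 3.94 FPKM in PZH + AOM/DSS mice 2, 13, 15, 35 and 36. These mice stood in the same order as for Lcn2. The difference between the AOM/DSS groups was -2.64 ± 0.62 for Cxcl2 (unadjusted P = 0.00151, adjusted P = 0.356, limma), and -1.65 ± 0.52 for Cxcl3 and -1.62 ± 0.38 for Il23a (adjusted P = 0.356 for both, limma). None of 12 genes of the list was called, and 8 were lower at an unadjusted P under 0.05.

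Markers of other cells moved with the members to different extents, and their part in the results was not tested. Of 13 macrophage genes, 4 rose under AOM/DSS, and their summed FPKM was 167 to 308 in the Control, 996 to 2400 in the AOM/DSS and 228 to 1714 in the PZH + AOM/DSS group. The sum was largely that of Lyz1, which Paneth cells also express, at 681 to 2128 FPKM in the AOM/DSS group and 1.66 to 21.5 FPKM in the Control group. Its difference was 7.14 ± 0.59 under AOM/DSS (adjusted P = 2.32e-05, limma) and -3.11 ± 1.06 between the AOM/DSS groups with and without PZH (adjusted P = 0.356, limma). Fcgr1 and Cd68, with smaller rises of 0.75 ± 0.15 and 0.59 ± 0.19 (adjusted P = 0.00554 and 0.0443, limma), differed by -0.06 and 0.13 between the AOM/DSS groups with and without PZH. Of 10 mast cell genes, 8 were tested and 7 rose, 2 of which (Mcpt2 and Fcer1a) reached 0.5 FPKM in no Control mouse. Mcpt1, a mucosal mast cell protease, rose by 5.10 ± 0.44, Mcpt2, another one, by 4.93 ± 0.39 and Cpa3, a carboxypeptidase, by 2.53 ± 0.31 (adjusted P = 2.94e-05, 1.74e-05 and 0.000275, limma). Between the AOM/DSS groups with and without PZH these 3 genes differed by -0.57 ± 0.72, -0.66 ± 0.74 and -0.70 ± 0.58. The mast cell list summed to 11.0 to 18.5 FPKM in the Control, 57.8 to 293 in the AOM/DSS and 41.9 to 303 in the PZH + AOM/DSS group, and none of its genes was lower with PZH at an unadjusted P under 0.05.

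Of 5 eosinophil genes, 2 were tested and both rose, Prg2, the major basic protein, by 1.55 ± 0.40 and Siglecf, a sialic acid receptor, by 0.38 ± 0.12 (adjusted P = 0.0186 and 0.0351, limma). Epx, the eosinophil peroxidase, did not pass 0.0485 FPKM in any mouse. The summed level of the list was 0.247 to 1.62 FPKM in the Control and 1.69 to 5.89 FPKM in the AOM/DSS group. Of 5 genes of all leukocytes, 1 (Laptm5, a lysosomal membrane protein) rose, by 0.97 ± 0.21 (adjusted P = 0.00798, limma), Coro1a, an actin-binding protein, differed by 1.17 ± 0.40 and Ptprc, which encodes CD45, by 0.73 ± 0.28 (adjusted P = 0.0584 and 0.0845, limma). Of 14 squamous epithelial genes 7 were tested, and none was called or had an unadjusted P under 0.05 (limma), with differences of -2.02 ± 1.25 for Krt10, 1.15 ± 1.12 for Krt14 and -1.19 for Krt4 (unadjusted P = 0.136, 0.33 and 0.38, limma). The sum of the squamous genes in the AOM/DSS group, 28 to 53.5 FPKM, lay between those of the 2 kinds of Control mice. In the PZH + AOM/DSS group the squamous sum was 82.9 FPKM in mouse 35 and 13.5 to 53 FPKM in the others. Of 10 colon epithelial genes, 3 fell under AOM/DSS, Slc26a3, the chloride exchanger of surface cells, by 2.39 on the log2 scale, Car1 by 2.21 and Lgals4 by 0.63 (adjusted P = 0.000231, 0.00305 and 0.0302, limma). Of 5 red blood cell genes, 1 (Alas2, of haem synthesis) rose by 0.62 ± 0.17 (adjusted P = 0.0222, limma), and the globin genes Hbb-bs and Hbb-bt differed by 1.09 ± 0.37 and 0.88 ± 0.36 (adjusted P = 0.0577 and 0.108, limma). In this list 4 genes were lower in the PZH + AOM/DSS group than in the AOM/DSS group at an unadjusted P under 0.05. Between PZH and Control mice, 2 of the 4 red blood cell genes tested were also lower at an unadjusted P under 0.05 (limma), and none was called. The summed FPKM of this list was 54.4 to 127 in the Control and 27.4 to 72.1 in the PZH group. It was 69.1 to 226 in the AOM/DSS and 21.7 to 136 in the PZH + AOM/DSS group. The medians were 83.4, 35.1, 171 and 45.9 in this order.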

How the data were processed

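Total RNA of colon tissue was depleted of ribosomal RNA, and libraries were sequenced by the authors, who filtered the reads, aligned reads with HISAT2 (build mm10) and assembled and quantified transcripts with StringTie. The labels' extraction text names another tissue (abdominal aorta), whereas the tissue label of every sample is colon. The deposited values are FPKM per transcript, computed by the authors, for the same 118434 transcripts in each of 20 mice. Of these transcripts, 22252 were assembled from the reads and carry no gene name. Per gene, FPKM were summed over the 96032 transcripts that GENCODE M21 (GRCm38) lists, and the others were left out. Annotated transcripts held 85.1 to 87.8% of the summed FPKM. Steps of FPKM times length gave 15.3 to 19.4 M fragments per mouse, but only 40.6 to 45.8% of low values were whole steps (within 0.02 of a step), so counts were not recovered and tests for counts were not used. For the 14 members with 1 transcript, 1 fragment is worth 0.0196 to 0.158 FPKM.

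Values were compared as log2(FPKM + 1) with limma 3.58.1 in R 4.3.3 (intensity trend, 2-sided, the mice of the compared groups, all 20 for the interaction, no covariates), and P was adjusted over all genes tested. Genes needed at least 0.5 FPKM in at least 5 mice. Mice were grouped by the labels. No 2 files were identical, and the correlation of log2(FPKM + 1) within groups was 0.955 to 0.979. In simulated data for AOM/DSS against Control (15152 genes), 67 of 100 genes changed by 1 and 88 of 100 changed by 2 on the log2 scale were called, all in the right direction, and 11 unchanged genes were called.

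The member genes and the marker lists were chosen with earlier results of these data known. Values for every mouse were given for the most abundant member of each of 9 roles, the 3 largest rises and falls (no member fell) under AOM/DSS, the 3 lowest P between the AOM/DSS groups, and any member called for PZH against Control, between the AOM/DSS groups or in the interaction (none was). From each other list the 3 genes with the lowest P under AOM/DSS that were tested were taken. Any other gene was named after its values were seen. Alternatives were median-of-ratios scaling, no filter, a filter of 1 FPKM, a pseudocount of 0.1, no intensity trend, all 20 mice in one model and leaving out each mouse in turn. Leaving out Control mice 17 and 50 together was chosen after seeing the data. Stretches of 75 bases shared with other genes were counted in the GENCODE M21 transcripts. Promoter sequences are those of RefSeq (GRCm38.p6), and 5 members had none.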

Additional observations from a re-analysis of the deposited data

Results flagged for a closer look

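Among the 12 members given for every mouse, 1 mouse lay far from the other 4 of its group in 11 of 45 group values, by Dixon's test at the 95% level. The test was run on FPKM without logs. Chance flags about 1 in 20 groups where values are normally distributed, which FPKM need not be. Members also share mice, so these values are not independent. PZH + AOM/DSS mouse 35 was the highest of its group for S100a9 (138 FPKM), Lcn2 (114 FPKM), Cyba (230 FPKM) and Acod1 (5.39 FPKM). Control mouse 17, which holds squamous keratins, was the highest of its group for Lcn2 (3.84 FPKM), Clec4d (2.62 FPKM), Stfa3 (21.9 FPKM) and Lrg1 (8.91 FPKM). Control mouse 48 was highest for Plaur (5.05 FPKM), Control mouse 37 for Cyba (121 FPKM) and PZH mouse 46 for S100a8 (8.98 FPKM).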

How the results depend on the processing

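No paired analysis was possible because no mouse number occurs in more than 1 group. Between AOM/DSS and Control, 23 to 25 members were called under every planned setting that kept all mice and without Control mice 17 and 50 (23), and 18 to 25 when 1 mouse was left out. Without 1 AOM/DSS mouse, 23 members were tested, the 5 members above 0.5 FPKM in AOM/DSS mice alone failed the filter, and Ncf4, Slfn4 or both also lost their call. Without 1 Control mouse, 28 were tested and 23 to 25 called. Ncf4 and Slfn4 were lost under median-of-ratios scaling and without filter. Between PZH and Control none was called in any setting. Between PZH + AOM/DSS and AOM/DSS, none was called under any setting other than all 20 mice in one model (7) and without PZH + AOM/DSS mouse 35 (12), a range of 0 to 12 when leaving out mice. The interaction gave 0 to 8 when leaving out mice, with 8 without mouse 35, and 0 otherwise. For PZH + AOM/DSS against PZH, where 5 were called, there was 1 without filter, 10 with all 20 mice in one model, and 0 to 7 when leaving out mice. For PZH + AOM/DSS against Control, where 4 were called, there were 0 without filter, 9 with all 20 mice in one model, 0 without Control mice 17 and 50, and 0 to 5 when leaving out mice. With all 20 mice in one model, calls over all genes rose as well. Against PZH they rose from 2.42% to 6.41% of the 15636 genes tested. Against Control they rose from 2.42% to 9.62% of the 15616 genes tested. No member with an unadjusted P under 0.05 changed sign under any setting run. Members that did not reach 0.5 FPKM in at least 5 of the compared mice could be tested only in the setting without filter.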
